A study of Mus musculus with 29 samples.

Results

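The Trim66 KO1 line was compared with wild type in mouse embryonic stem (ES) cells. Of the 29 samples of the series, 4 RNA-seq libraries enter the comparison, 2 of the line titled Trim66 knockout 1 (KO1) and 2 of wild type, taken by their titles and read from a single table of raw counts. All are of the 129/Ola strain, untreated, and were grown on gelatin in serum medium. No label gives the edited part of Trim66, how the line was made or whether it is a single clone, and none says that separate cultures gave the 2 libraries of a group. The p-values thus measure only the spread between libraries of a group, which may be technical. The second knockout line of the series, KO2 (2 libraries), shares the wild-type libraries. It is named here as a yardstick for KO1, and its libraries also enter the estimate of the spread behind each p-value.

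TRIM66 is a tripartite motif protein related to TRIM24, TRIM28 and TRIM33, which bind chromatin through a PHD finger and a bromodomain and act mostly as corepressors. ES cells hold a small and changing fraction of cells in the 2-cell-like state, where genes first transcribed by the 2-cell embryo, such as the Zscan4 family, and the retrovirus MERVL are switched on by the homeobox factor DUX. The title of the series places TRIM66 and DAX1, the product of Nr0b1, above Dux as repressors of that state. The question asked here was how the RNA of the KO1 line differed from wild type, beyond that programme as well as within it.

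The wild-type libraries held 14123663 and 15120568 counts and the libraries labelled KO1 13225818 and 14451130. Trim66 (chromosome 7, 109449001 to 109516759, GRCm38.p6, as all positions here) had 11 and 15 counts in wild type and 35 and 38 counts in the libraries labelled KO1. Both of the latter were above both wild-type libraries (log2 fold change 1.54, SE 0.328, adjusted p = 0.00630). Without wild-type replicate 1 the adjusted p was 0.0599. Trim66 RNA was thus higher, not lower, under the knockout label, and the counts do not show which exons the reads came from. The libraries are therefore called the libraries labelled KO1, or KO1-labelled, and each direction below rests on that label. Of the 7 genes of TRIM66, its relatives and their HP1 partners, 2 were higher, Trim66 among them, and 1 was lower. The latter, Trim24, had 162 and 153 CPM in the wild-type libraries and 126 and 125 CPM in the KO1-labelled libraries (log2 fold change -0.33, adjusted p = 0.0499), and lost its call without any 1 of the 4 libraries (adjusted p from 0.106 to 0.224). Trim28, the corepressor of endogenous retroviruses, had 2428 and 2394 CPM in wild type and 2030 and 2098 CPM in the libraries labelled KO1 and did not pass (log2 fold change -0.22, adjusted p = 0.0914).

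Across the transcriptome the libraries labelled KO1 differed from wild type at many genes. Of 14189 genes tested with edgeR's quasi-likelihood test, 2587 (18.2%) were higher and 2034 (14.3%) lower at an adjusted p under 0.05. These shares are the background against which each gene group below is read, beside a median log2 fold change of 0.027 over all genes tested. At least 2-fold changes were less even, with 1199 genes (8.45%) higher and 428 (3.02%) lower. Without 1 of the 4 libraries 1286 to 1490 genes were higher and 887 to 1300 lower. Of 876 subfamilies of transposable elements, 33 (3.77%) were higher and 50 (5.71%) lower, or 10 to 18 and 8 to 17 without 1 library. A level is given in CPM, the counts scaled to a common library size by edgeR's TMM method, and a difference as a log2 fold change of the libraries labelled KO1 over wild type beside its standard error (SE).

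Chromosomes 1 and 15 stood apart from the other autosomes and the X. Over the 530 genes of chromosome 1 with a mean log2 CPM above 3, the median log2 fold change was -0.62, and 91.1% of them were lower in the libraries labelled KO1. The 4 ratios of a single KO1-labelled to a single wild-type library had chromosome 1 medians from -0.66 to -0.61. Over the 407 such genes of chromosome 15 the median was 0.27, with single-library medians from 0.27 to 0.29. The other 18 chromosomes had medians from -0.10 to 0.055, the Y left out because it had 5 tested genes. Of those 5 genes of the Y, 4 were higher and 0 lower, with a median of 0.42 over the 4 above a mean log2 CPM of 3. By the test, 433 of 763 genes of chromosome 1 were lower and 38 higher, and 217 of 561 of chromosome 15 were higher and 42 lower.

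**Figure D1:**
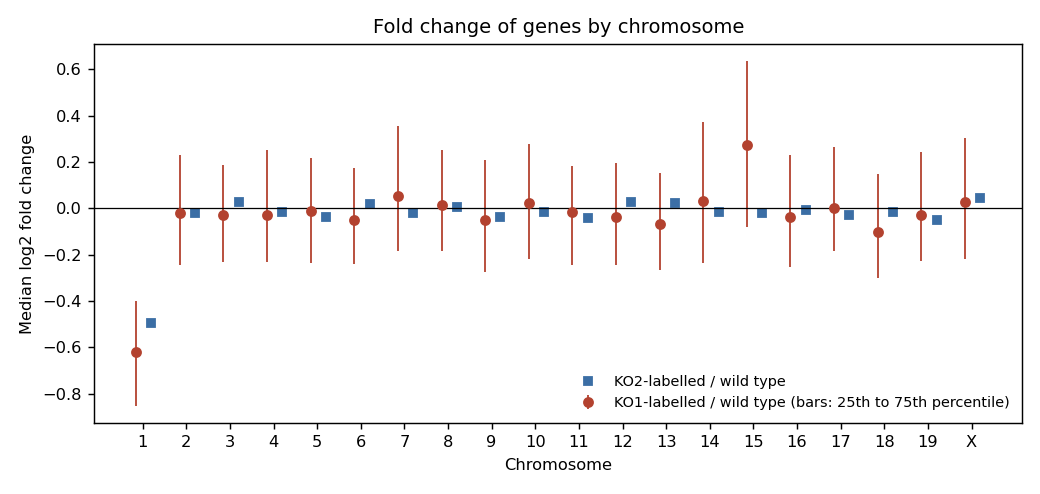
Median log2 fold change of the genes of each chromosome (points) with the 25th to 75th percentile (bars), over genes above a mean log2 CPM of 3, for the libraries labelled KO1 and KO2 against the same wild-type libraries. Chromosome 1 lies at -0.62 and chromosome 15 at 0.27 in KO1, where KO2 has -0.49 and -0.019.

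The 2 chromosomes differed in how far the shift reached. When the genes of chromosome 1 were divided by position into 10 stretches of equal gene number, all 10 were low, with medians from -0.54 to -0.77. In KO2, set beside it, the first 7 stretches had medians from -0.48 to -0.60 and the last 3, from position 155275657 on, -0.18, -0.091 and -0.01. Chromosome 15 was near wild type in its first 5 stretches (-0.10, -0.058, 0.0085, 0.044 and 0.10) and raised in its last 5, from position 79823898 on (0.45, 0.63, 0.58, 0.50 and 0.63). Thus the chromosome 15 rise was a rise of its distal part, and in KO2 no stretch of that chromosome was beyond -0.10 to 0.063.

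**Figure D2:**
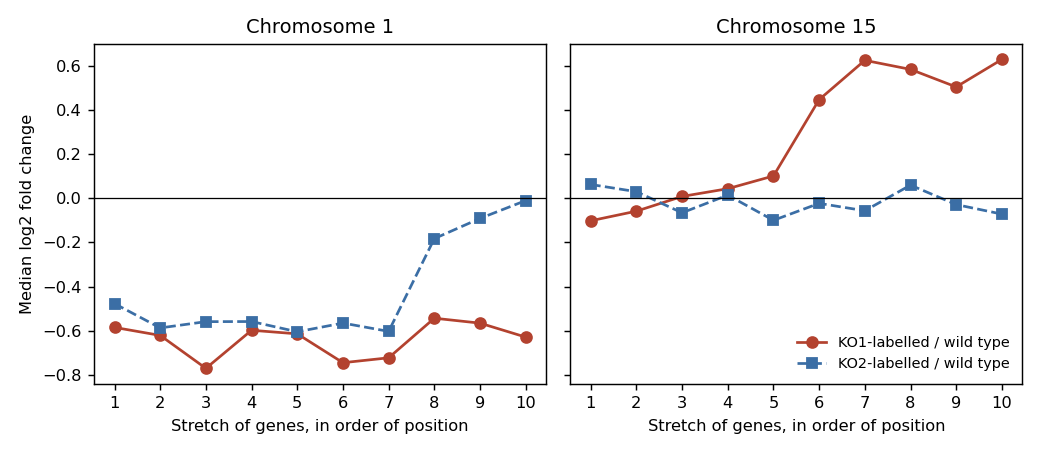
Median log2 fold change of 10 successive stretches of genes along chromosomes 1 and 15, in order of position, for the libraries labelled KO1 and KO2 against wild type. In KO1 every stretch of chromosome 1 is below 0 and the last 5 stretches of chromosome 15 are above 0.

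The share of gene counts from chromosome 1 was 8.21% and 8.35% in the wild-type libraries and 5.33% to 6.87% in the other 18 RNA-seq libraries of the series. That of chromosome 15 was 5.38% and 5.40% in the KO1-labelled libraries and 4.40% to 4.87% in the other 18. Chromosome 1 is thus high in wild type and chromosome 15 high in KO1; whether the number of chromosome copies differed was not tested. Outside these chromosomes 2329 of 12819 genes were higher (18.2%) and 1557 lower (12.1%), and each gene below that lies on them is given with its chromosome. Of the chromosome 15 genes named below, Krt8, Krt18 and Slc38a2 lie in its raised distal part, and Dab2, Ndrg1, Foxh1 and Dmc1 lie before it.

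The 2-cell genes were the gene group with the largest median rise among the lists examined. Zscan4c, of a zinc finger family that acts in telomere maintenance, had 5 and 1 counts in wild type and 60 and 48 counts in the libraries labelled KO1, so that both KO1-labelled libraries lay above both of wild type (log2 fold change 4.17, SE 0.552, adjusted p = 4.63e-04). Its promoter is printed because it holds a letter match to the motif of DUX (TGATTNAAT, in capitals), which 0.840% of all genes with a RefSeq promoter hold in the window from 250 bases before to 50 after the start, and 7 of the 23 2-cell genes with such a window do, all 7 of them among the 18 that rose. The sequence is from RefSeq, GRCm38.p6, chr7:11005495-11005794, plus strand; motifs were searched on both strands, and a match is a description only.
Zscan4c promoter: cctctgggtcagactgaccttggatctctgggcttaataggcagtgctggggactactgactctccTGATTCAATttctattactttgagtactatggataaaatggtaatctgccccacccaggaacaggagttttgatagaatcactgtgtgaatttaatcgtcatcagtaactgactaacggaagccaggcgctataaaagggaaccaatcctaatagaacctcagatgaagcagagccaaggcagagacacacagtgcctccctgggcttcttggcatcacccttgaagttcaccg

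Of 69 2-cell genes counted, 39 had enough counts to be tested. Of these, 28 were higher and 1 lower, with a median log2 fold change of 3.61, or 2.64 with the 9 genes at 0 counts in wild type placed at the lower bound that 3 counts give. The count filter took wild type, KO1 and KO2 together. Genes at or near 0 in wild type could pass it only through knockout-labelled libraries where they were high. The share, the median and the rank of this list thus lean to rises. Zscan4f had 4 and 7 counts in wild type and 69 and 75 counts in the libraries labelled KO1 and rose by 3.74 on the log2 scale (SE 0.345). Gm8300, a multicopy gene model, had 2 and 0 counts in wild type and 37 and 47 counts in the libraries labelled KO1, a 43.6-fold ratio whose 95% interval from counting error alone was 11.7 to 366. These genes rest on few reads in wild type, and near-identical copies share reads, so the values of single members are uncertain. The exception was Rbm44, a germ cell gene on chromosome 1, which fell by 1.56 on the log2 scale. Eif1a, a translation initiation factor gene of the list, had 285 and 275 CPM in wild type and 264 and 243 CPM in the libraries labelled KO1 and did not pass (log2 fold change -0.15, adjusted p = 0.311). Without it the summed level of the list was 33.5 and 27.4 CPM in wild type and 74.4 and 76.3 CPM in the libraries labelled KO1.

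Dux itself had 0 and 1 counts in wild type and 1 and 6 counts in the libraries labelled KO1. The ratio was 7.27, with a 95% counting interval of 0.933 to 327 and an adjusted p of 0.164, so a change of Dux was not detectable at this depth. MERVL-int, the internal part of the retrovirus, had 148 and 156 CPM in wild type and 188 and 201 CPM in the libraries labelled KO1, a small rise beyond the spread of the libraries (log2 fold change 0.35, SE 0.105, adjusted p = 0.0281). The call was lost without any 1 of the 4 libraries (adjusted p from 0.105 to 0.242). Its promoter MT2_Mm had 68.8 and 70.1 CPM in the wild-type libraries and 71.2 and 78.1 CPM in the KO1-labelled libraries and did not pass (log2 fold change 0.10, SE 0.0991, adjusted p = 0.458). Nr0b1, the DAX1 gene, overlapped between groups at 155 and 157 CPM in wild type and 165 and 152 CPM in the libraries labelled KO1 (log2 fold change 0.027, adjusted p = 0.854). Of 38 genes known to hold back or open the 2-cell-like state, 5 rose and 13 fell, 3 of those from chromosome 1. Ehmt2, a histone H3 lysine 9 methyltransferase that represses MERVL, rose by 0.78 on the log2 scale, and Tet2, a 5-methylcytosine oxidase, fell by 1.0.

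Pluripotency genes were split. The core factor Pou5f1 had 1713 and 2234 CPM in the wild-type libraries and 1918 and 2003 CPM in the KO1-labelled libraries, with a wide and overlapping spread (log2 fold change -0.0096, adjusted p = 0.978). Of 45 genes of naive pluripotency and LIF signalling, 11 were higher and 12 lower, with a median of -0.012; 4 of those that fell lie on chromosome 1. Several factors that maintain the naive state fell. Tbx3, a T-box factor downstream of LIF, had 251 and 239.7 CPM in wild type and 69.8 and 71.8 CPM in the libraries labelled KO1 (log2 fold change -1.79, SE 0.0907, adjusted p = 2.93e-06). Klf4, a Kruppel-like factor, had 288 and 289 CPM in the wild-type libraries and 103 and 105 CPM in the KO1-labelled libraries (log2 fold change -1.48, SE 0.109, adjusted p = 1.98e-05). In both, the KO1-labelled libraries were far below wild type and close to each other. Esrrb, an orphan nuclear receptor of the naive network, fell by 0.53 on the log2 scale, and Tfcp2l1, Prdm14 and Nr5a2, 3 further factors of the network on chromosome 1, by 1.55, 1.02 and 0.71.

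The naive-associated genes that rose were of other kinds. Dppa3, a maternal factor that protects DNA methylation in the early embryo, had 9 and 6 counts in wild type and 242 and 225 counts in the libraries labelled KO1, so that no library of a group overlapped the other (log2 fold change 4.99, SE 0.298, adjusted p = 6.45e-06). Pim2, a serine/threonine kinase gene induced by LIF, had 12.5 and 14.5 CPM in the wild-type libraries and 67.5 and 66.5 CPM in the KO1-labelled libraries (log2 fold change 2.31, SE 0.160, adjusted p = 1.43e-05). The same held for Pim2. Tcl1, a cofactor of AKT, rose by 0.97 and Fbxo15, an F-box gene marking ES cells, by 1.03 on the log2 scale.

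**Figure D3:**
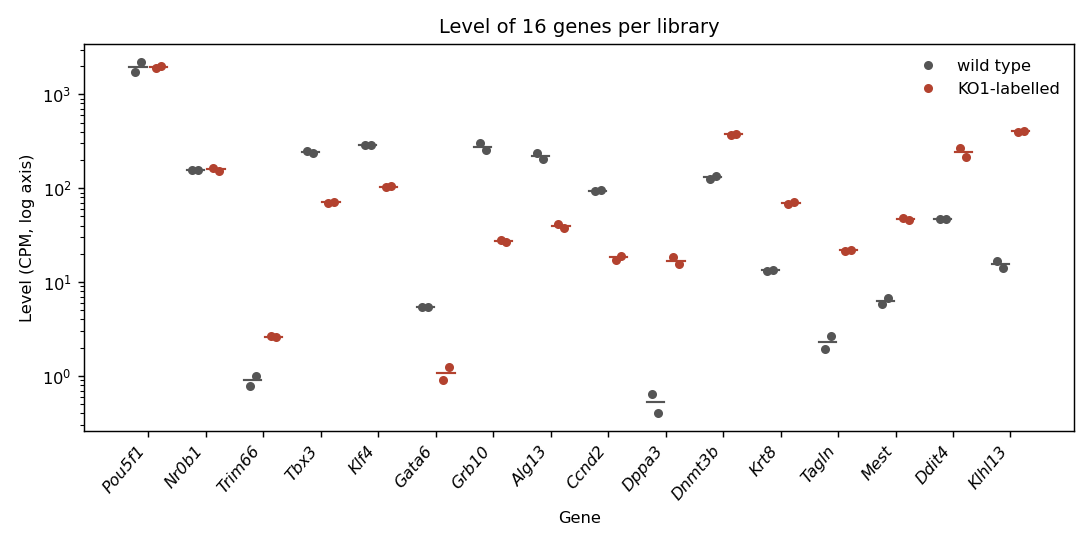
Level of 16 genes in each of the wild-type and KO1-labelled libraries, in CPM on a log axis (points, 1 per library; horizontal bars, the mean of 2). The groups do not overlap for any gene shown but Pou5f1 and Nr0b1.

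Genes of the formative and primed epiblast, the state that follows the naive one, also moved both ways. Of 25, 13 were higher and 7 lower, with a median of 0.53. Dnmt3b, a de novo DNA methyltransferase, had 126 and 136 CPM in wild type and 373 and 378 CPM in the libraries labelled KO1 (log2 fold change 1.52, SE 0.0993, adjusted p = 1.17e-05), and Dnmt3l, its cofactor without catalytic activity, rose by 1.29. Zic2, a zinc finger transcription factor found in the epiblast, had 7.10 and 7.31 CPM in the wild-type libraries and 29.4 and 29.0 CPM in the KO1-labelled libraries (log2 fold change 2.02, SE 0.133, adjusted p = 1.20e-05). Against these, the transcription factor genes Sox4, Tcf15 and Etv4 fell by 1.49, 0.84 and 0.77 on the log2 scale. The methyltransferase gene Dnmt3a did not pass, at -0.062 (adjusted p = 0.747).

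In the Nodal pathway the ligand and its feedback inhibitors were higher. Nodal had 49.7 and 51.3 CPM in wild type and 82.7 and 83.4 CPM in the libraries labelled KO1 (log2 fold change 0.72, SE 0.0958, adjusted p = 4.87e-04). Lefty1, a secreted inhibitor of Nodal, had 19.5 and 21.3 CPM in the wild-type libraries and 124 and 126 CPM in the KO1-labelled libraries (log2 fold change 2.62, SE 0.188, adjusted p = 1.67e-05), and Lefty2 rose by 1.02; both lie on chromosome 1 and went against its shift. Foxh1, the DNA-binding partner of SMAD2 on chromosome 15, rose by 1.58, and the BMP targets Id1 and Id2 by 0.72 and 1.68. The activin subunit gene Inhbb (chromosome 1) fell by 1.95, the activin antagonist gene Fst by 2.27, the transducer gene Smad5 by 0.78 and the receptor gene Bmpr2 (chromosome 1) by 1.10. Over the 35 genes of the pathway 11 rose and 9 fell (median -0.14). Among 35 FGF and ERK genes 8 rose (22.9%) and 6 fell (17.1%), shares near the 18.2% and 14.3% over all genes. The receptor gene Fgfr2 rose from 25 and 29 counts in wild type to 212 and 198 counts in the libraries labelled KO1 (log2 fold change 2.98, SE 0.234, adjusted p = 2.67e-05). The immediate early gene Jun and the phosphatase gene Dusp1 rose by 1.37 and 1.36. The ETS factor gene Etv4, a target of FGF signalling, is the fall given above.

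Primitive endoderm genes fell in part. Gata6, the zinc finger factor that specifies this lineage, had 5.45 and 5.43 CPM in the wild-type libraries and 0.908 and 1.23 CPM in the KO1-labelled libraries, with both KO1-labelled libraries below wild type (log2 fold change -2.33, SE 0.277, adjusted p = 2.50e-04). The endocytic adaptor gene Dab2 (chromosome 15) and the endocytic receptor gene Cubn fell by 2.60 and 2.35 on the log2 scale, and the basement membrane genes Col4a1, Lama1 and Lamc1 (the last on chromosome 1) by 1.09, 0.93 and 1.08. Of 27 genes 13 fell and 8 rose, with a median of -0.21. Among those that rose, the X-linked homeobox gene Rhox5 had 6.38 and 8.59 CPM in wild type and 67.8 and 65.1 CPM in the libraries labelled KO1 (log2 fold change 3.15, SE 0.154, adjusted p = 2.77e-06), and Apoe, which encodes a lipid carrier, by 1.77. Of 16 primitive streak, mesoderm and definitive endoderm genes 4 fell, among them the receptor gene Pdgfra (by 2.03), and 2 rose.

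Genes of simple epithelium and trophectoderm were mostly higher. Of 27, 16 rose and 4 fell, with a median of 0.95; without chromosomes 1 and 15 the counts were 13 and 3 of 23. Krt8 and Krt18, which encode the paired keratins of simple epithelia, both lie in the raised distal part of chromosome 15. Krt8 had 13.2 and 13.4 CPM in the wild-type libraries and 67.2 and 72.1 CPM in the KO1-labelled libraries (log2 fold change 2.39, SE 0.123, adjusted p = 3.03e-06), and Krt18 had 7.38 and 5.57 CPM in wild type and 49.5 and 40.6 CPM in the libraries labelled KO1 (log2 fold change 2.80, SE 0.198, adjusted p = 1.59e-05). Their rises of about the same size were well above the 0.63 median of the stretch that holds them. Tfap2c, a transcription factor of the trophoblast and of germ cells, rose by 1.33, and its paralogue Tfap2a fell by 2.14; the tight junction gene Cldn4 rose by 1.47, and the tetraspanin gene Tspan8 fell by 2.94.

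Genes of the contractile cytoskeleton were higher in part. Acta2 (chromosome 19, 34240336 to 34255585), which encodes smooth muscle actin, had 0 and 0 counts in wild type and 211 and 228 counts in the libraries labelled KO1, at least 152-fold higher against a limit of 3 counts over the wild-type group (adjusted p = 4.45e-06). Other genes of actin filaments rose with it. Tagln, an actin-binding protein of smooth muscle, had 1.94 and 2.68 CPM in wild type and 21.6 and 21.9 CPM in the libraries labelled KO1 (log2 fold change 3.22, SE 0.235, adjusted p = 1.81e-05), and Myl9, a myosin light chain, had 0.645 and 0.939 CPM in the wild-type libraries and 12.9 and 10.8 CPM in the KO1-labelled libraries (log2 fold change 3.88, SE 0.266, adjusted p = 1.38e-05). The tropomyosin gene Tpm1, the calponin gene Cnn2 and the annexin gene Anxa2 rose by 1.89, 2.05 and 2.00 on the log2 scale. Of 46 genes of smooth muscle and the actin cytoskeleton 21 rose and 6 fell (median 0.36); the filamin gene Flnc fell by 1.08, and the most abundant member, Actg1, did not pass (-0.27, adjusted p = 0.0758).

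Serum response factor binds the CArG box, a letter match to which 1.81% of all promoter windows' genes and 9 of the 40 genes of this list with a window hold, 4 of them among the 17 that rose. The Myl9 promoter (RefSeq, GRCm38.p6, chr2:156775214-156775513, plus strand) is shown as one of the latter, with the CArG box in capitals.
Myl9 promoter: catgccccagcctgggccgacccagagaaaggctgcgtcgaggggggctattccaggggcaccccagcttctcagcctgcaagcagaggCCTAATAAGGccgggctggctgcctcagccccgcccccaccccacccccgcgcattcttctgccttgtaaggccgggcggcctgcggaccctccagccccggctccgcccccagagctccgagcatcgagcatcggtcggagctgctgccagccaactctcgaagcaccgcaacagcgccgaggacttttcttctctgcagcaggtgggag

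Since actin, collagen and annexin genes also mark fibroblasts, which ES cell cultures can hold, 38 fibroblast and feeder markers were examined as a group. Of the 25 with enough counts 15 rose and 3 fell, with a median of 1.0. Their summed level was 1578 and 1464 CPM in wild type and 1663 and 1580 CPM in the KO1-labelled libraries. In wild type most of that sum was Fn1, the fibronectin gene on chromosome 1, with 1062 and 1002 CPM in wild type and 579 and 548 CPM in the libraries labelled KO1 (log2 fold change -0.87, SE 0.0911, adjusted p = 1.29e-04). Without Fn1 the other markers summed to 516 and 462 CPM in wild type and to 1084 and 1032 CPM in the KO1-labelled libraries, both of which were higher. The part of such cells in the rise of the actin genes was not tested. Col1a1, the main collagen of fibroblasts, had 0.645 and 0.872 CPM in the wild-type libraries and 7.64 and 6.72 CPM in the KO1-labelled libraries (log2 fold change 3.22, SE 0.294, adjusted p = 6.46e-05), while the receptor gene Pdgfra, another of their markers, fell as given above. Defining markers stayed at or near 0 in the KO1-labelled libraries: Dcn had 0 and 1 counts, Postn 1 and 1, Prrx1 (chromosome 1) 1 and 0 and Col3a1 (chromosome 1) 5 and 8, and 3 markers (Cdh11, Fap and Lum) had 0 in both. In bulk RNA, more cells of a type and more RNA per cell cannot be told apart. Among endothelial markers 3 of 9 rose (2 by DESeq2), and among blood and macrophage markers 2 of 6 rose (0 by DESeq2); 0 fell in either list (endothelial 1 at p below 0.05 unadjusted, 0 by DESeq2; blood 0 at p below 0.05 unadjusted, 0 by DESeq2).

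Germline genes fell in part. Of 55 germline genes whose promoters are methylated in most somatic cells, 15 fell (27.3%) and 11 rose (20%), with a median of -0.18. The share that fell was above the 14.3% over all genes, and the share that rose was near the 18.2%. On chromosome 15 lie 3 of those that rose. Dazl, an RNA-binding protein of germ cells, had 17.6 and 18.7 CPM in wild type and 6.58 and 6.65 CPM in the libraries labelled KO1 (log2 fold change -1.45, SE 0.179, adjusted p = 2.99e-04). Tex11, Stag3 and Ddx4, which act in meiotic crossing over, meiotic cohesion and germ granules, fell by 1.60, 0.89 and 0.88 on the log2 scale. Dmc1, a meiotic recombinase gene on chromosome 15, rose by 1.06. In KO2 against KO1, the germline list had 35 genes higher and 1 lower by the edgeR test. The background shares of that contrast were 10.3% higher and 13.7% lower. It does not reflect falls in KO1 alone. Against wild type, KO2 had 29 of the 55 genes higher and 0 lower, with a median of 0.72, where KO1 had -0.18.

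Several of these germline promoters hold the E-box CACGTG, bound by repressors that contain MAX, among others. 15 of 50 germline genes with a promoter window hold it, 6 of the 13 that fell and 1 of the 11 that rose, against 8.09% of all genes. Stag3 is shown as one that fell, with the E-box in capitals (RefSeq, GRCm38.p6, chr5:138280259-138280558, plus strand).
Stag3 promoter: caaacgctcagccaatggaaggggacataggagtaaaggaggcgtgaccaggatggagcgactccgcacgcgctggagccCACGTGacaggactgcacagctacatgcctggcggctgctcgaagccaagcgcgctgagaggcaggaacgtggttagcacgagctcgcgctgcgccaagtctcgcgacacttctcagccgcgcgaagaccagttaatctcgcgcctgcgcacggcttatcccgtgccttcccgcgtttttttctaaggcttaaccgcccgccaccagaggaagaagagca

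The Rhox cluster of homeobox genes on the X was split within itself. Rhox6 had 2 and 4 counts in wild type and 77 and 100 counts in the libraries labelled KO1 and rose by 4.88 on the log2 scale. Rhox9 had 6 and 5 counts in wild type and 71 and 86 counts in the libraries labelled KO1 and rose by 3.86. Rhox10 had 64 and 61 counts in wild type and 5 and 8 counts in the libraries labelled KO1 and fell by 3.19. No library of one group overlapped the other for these 3 genes. The KO2 minus KO1 difference of Rhox10 was 3.41 (adjusted p = 3.33e-04) and that of Rhox6 -2.12 (adjusted p = 8.44e-04).

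Imprinted genes, transcribed from a single parental copy, moved by large steps in either direction. Of 53, 23 rose (43.4%) and 9 fell (median 0.37). Mest, a paternally transcribed gene, had 5.81 and 6.78 CPM in wild type and 47.7 and 45.7 CPM in the libraries labelled KO1 (log2 fold change 2.89, SE 0.138, adjusted p = 2.77e-06). The maternally transcribed noncoding RNA H19 had 9 and 20 counts in wild type and 193 and 158 counts in the libraries labelled KO1 (log2 fold change 3.65, SE 0.314, adjusted p = 4.57e-05). The paternally transcribed neighbour of H19, the growth factor gene Igf2, rose by 2.11; genes of either parental origin thus rose. The Polycomb-type gene Sfmbt2 and the zinc finger gene Peg3 rose by 3.52 and 1.71. Grb10, an adaptor that restrains insulin and IGF receptor signalling, went the other way at 299.5 and 253 CPM in wild type and 27.8 and 26.7 CPM in the libraries labelled KO1 (log2 fold change -3.34, SE 0.120, adjusted p = 8.20e-07). Zdbf2, on chromosome 1, fell by 1.41.

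Stress-response genes were mostly higher. Of 59 genes of the integrated stress response, which ATF4 drives when amino acids or protein folding fail, 33 rose and 3 fell (median 0.40). Ddit4, an mTORC1 inhibitor induced by stress and low oxygen, had 46.7 and 47.0 CPM in the wild-type libraries and 268 and 215 CPM in the KO1-labelled libraries (log2 fold change 2.37, SE 0.140, adjusted p = 6.27e-06). Gpt2, an alanine transaminase, Stc2, a secreted glycoprotein, Nupr1, a small stress-induced chromatin protein, and Slc38a2, an amino acid transporter on chromosome 15, rose by 1.28, 1.24, 1.16 and 1.01 on the log2 scale. The transfer RNA synthetase genes Gars and Aars did not pass (0.10 and -0.034), and Eprs, on chromosome 1, fell by 0.95. Of 21 genes of protein folding in the endoplasmic reticulum 9 rose and 0 fell (1 at p below 0.05 unadjusted, 0 by DESeq2), by smaller sizes: the disulphide-forming oxidase gene Ero1l rose by 0.79, and the main chaperone gene Hspa5 did not pass (0.089, adjusted p = 0.465).

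The ATF4 response motif TGATGCAA was found in the promoter windows of 13 of 47 of these genes, against 1.03% of all genes, and 6 of the 24 that rose hold it. The Nupr1 promoter (RefSeq, GRCm38.p6, chr7:126625421-126625720, minus strand) is one of them, with the motif, read on the opposite strand, in capitals.
Nupr1 promoter: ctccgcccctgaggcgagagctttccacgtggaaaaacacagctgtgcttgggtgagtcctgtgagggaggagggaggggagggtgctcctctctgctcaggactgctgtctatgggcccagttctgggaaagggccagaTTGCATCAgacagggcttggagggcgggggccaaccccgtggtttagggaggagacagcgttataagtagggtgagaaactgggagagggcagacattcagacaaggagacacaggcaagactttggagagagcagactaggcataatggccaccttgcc

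Low-oxygen and glycolysis genes rose as well. Of 28 hypoxia genes 18 were higher and 1 lower (median 0.59), and of 24 glycolysis genes 12 were higher and 0 lower (median 0.32; for falls, 1 at p below 0.05 unadjusted, 1 by DESeq2). Bnip3, a mitophagy receptor induced by low oxygen, had 100.5 and 86.0 CPM in wild type and 336 and 318 CPM in the libraries labelled KO1 (log2 fold change 1.81, SE 0.154, adjusted p = 4.17e-05). Car12, a carbonic anhydrase, and Ndrg1 (chromosome 15) rose by 1.89 and 1.47, and the lactate transporter gene Slc16a3 and the enzyme genes Tpi1, Pgk1 and Pfkl by 1.42, 0.87, 0.73 and 0.70. The glycolytic gene Pkm did not pass (0.15, adjusted p = 0.294). The oxygen supply of the cultures is not in the labels.

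The core of the hypoxia response motif, ACGTGC, occurs in the windows of 14 of 24 hypoxia genes (7 of the 15 that rose), of 8 of 23 glycolysis genes (6 of 12) and of 6.68% of all genes. It overlaps the E-box CACGTG by 5 letters. Bnip3 is shown with its 2 matches, which overlap on opposite strands, in capitals (RefSeq, GRCm38.p6, chr7:138909457-138909756, minus strand).
Bnip3 promoter: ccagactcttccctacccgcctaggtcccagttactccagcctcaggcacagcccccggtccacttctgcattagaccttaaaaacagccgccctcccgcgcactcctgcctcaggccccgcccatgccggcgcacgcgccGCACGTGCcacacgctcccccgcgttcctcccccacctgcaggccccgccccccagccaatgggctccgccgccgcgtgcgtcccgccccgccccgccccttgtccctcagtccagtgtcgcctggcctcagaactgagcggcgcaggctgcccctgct

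Detoxification and lysosomal genes shared the direction. Of 31 NRF2 and glutathione genes 16 rose and 1 fell (median 0.37), with the glutathione transferase genes Gstm1 and Gstm2 at 1.68 and 2.95, the peroxidase genes Gpx2 and Gpx4 at 2.95 and 0.95 and the metallothionein gene Mt2 at 1.39. Gstm genes are close paralogues, whose reads can be divided in ways the counts do not show. Of 31 lysosome and autophagy genes 16 rose and 3 fell (median 0.34), among them the lysosomal glycosidase gene Hexa at 1.21, the autophagy receptor gene Sqstm1 at 1.01 and the lysosomal regulator gene Tfe3 at 0.62.

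Antiviral genes and p53 targets were called higher in larger numbers than lower. Of 26 interferon and antigen presentation genes 11 were higher and 1, on chromosome 1, was lower. Ifitm3, an antiviral membrane protein, had 26.3 and 22.8 CPM in the wild-type libraries and 139 and 153 CPM in the KO1-labelled libraries (log2 fold change 2.58, SE 0.112, adjusted p = 2.09e-06), its neighbour Ifitm1 rose by 2.24, and Bst2, which tethers budding viruses, by 1.52. Of 39 p53 targets 14 rose and 2 fell (median 0.19). Ddit4, given above, is on this list too, and Pmaip1, a proapoptotic BH3 gene, fell by 1.85.

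**Figure D4:**
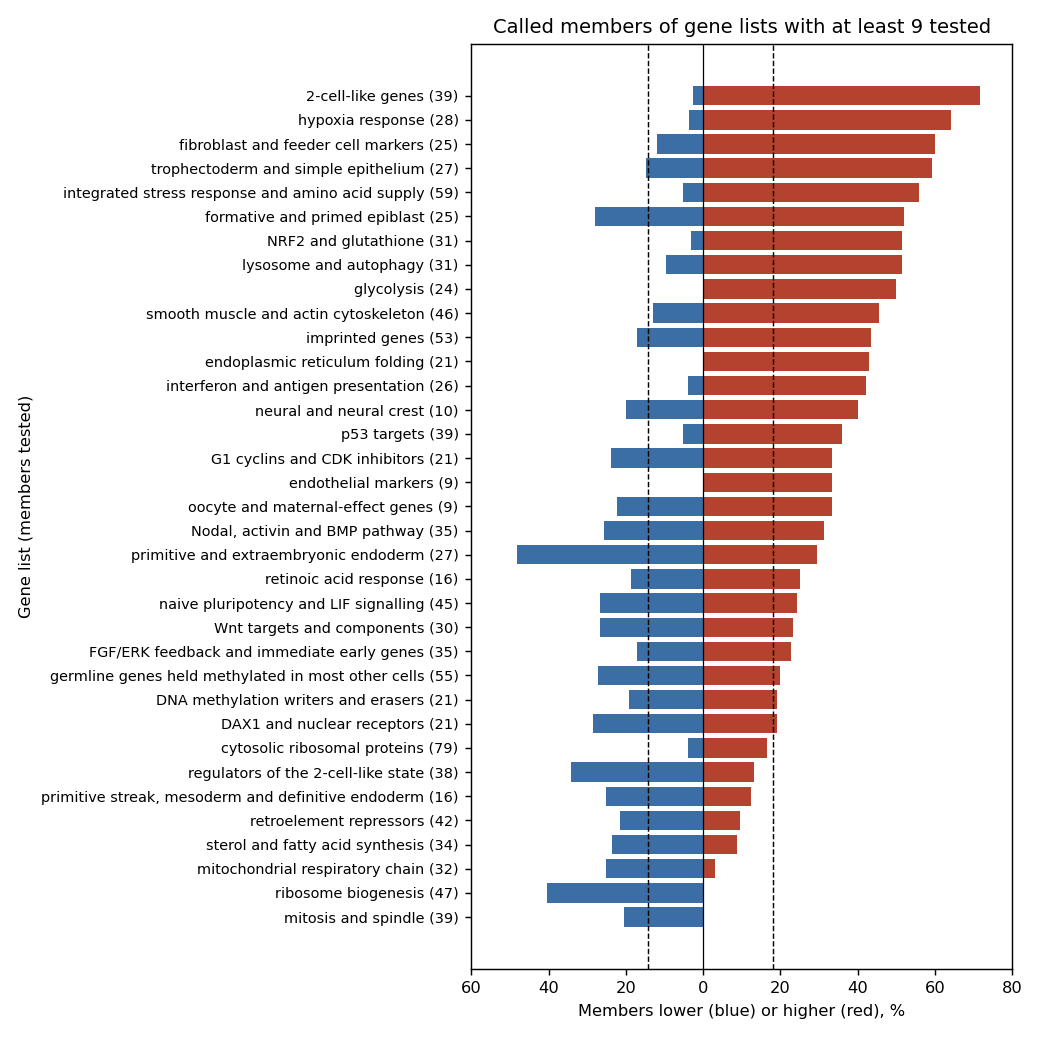
Percentage of the tested members of each gene list that were higher (right) or lower (left) in the libraries labelled KO1 than in wild type at an adjusted p under 0.05, with the number tested after each name. Dashed lines mark the percentages over all genes, 18.2% higher and 14.3% lower. The 2-cell list reaches 71.8% higher, a share that the count filter favours.

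Without 1 of the 4 libraries the number of calls was smaller in most of these lists. The 2-cell list then had 20 to 21 genes higher, the hypoxia list 9 to 12, the integrated stress response list 20 to 23, the trophectoderm list 15 to 16, the formative list 10 to 12, the actin list 16 to 17, the imprinted list 15 to 18, the NRF2 list 9 to 10 and the lysosome list 8 to 10. The primitive endoderm list had 10 to 12 genes lower and the germline list 9 to 14.

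Ribosome biogenesis genes fell in part, and the chromosome 1 shift touches them. Of 47 ribosome biogenesis genes 19 fell and 0 rose (2 at p below 0.05 unadjusted, 0 by DESeq2), 7 of the former on chromosome 1, and outside chromosomes 1 and 15 12 of 39 fell (median -0.18); 9 to 12 of the full list fell without 1 of the 4 libraries. The chromosome 1 gene Ncl, which encodes nucleolin, had 4136 and 4072 CPM in wild type and 2744 and 2673 CPM in the libraries labelled KO1 (log2 fold change -0.60, SE 0.0898, adjusted p = 9.36e-04), and Noc3l, a pre-ribosome factor on chromosome 19, fell by 0.81. Of cytosolic ribosomal protein genes, 13 of 79 were higher (16.5%, near the background) and 3 lower, all on chromosome 1, with a median of 0.22. Of 39 mitotic genes 8 fell, 4 from chromosome 1, and 0 rose (2 at p below 0.05 unadjusted, 0 by DESeq2); outside chromosomes 1 and 15 4 of 34 fell, a share near the background. Among respiratory chain genes 8 of 32 fell and 1 rose (outside chromosomes 1 and 15, 4 of 24 fell), and among sterol and fatty acid genes 8 of 34 fell and 3 rose (outside these chromosomes, 7 of 31 fell). The shares of the full lists that fell, 25% and 23.5%, were above the 14.3% over all genes, and the medians were -0.10 and -0.11. Of the respiratory chain genes that fell, 4 lie on chromosome 1. Outside chromosomes 1 and 15 the share of that list was smaller and nearer to the 12.1% of all genes there.

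The regulators of G1 were rearranged by member. Ccnd2, cyclin D2, had 93 and 95 CPM in the wild-type libraries and 17 and 19 CPM in the KO1-labelled libraries (log2 fold change -2.36, SE 0.115, adjusted p = 2.77e-06). The kinase gene Cdk6, whose product pairs with cyclin D2, fell by 1.73. Cdkn2a, which encodes their inhibitor p16 and the p53 activator p19ARF, rose by 1.51. The kinase gene Cdk2 did not pass (-0.14, adjusted p = 0.407). Over the 21 genes 7 rose and 5 fell.

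Beyond the lists, large changes of single genes, ranked among genes at 2 CPM or more without gene models, were in genes of mixed function. Klhl13, an X-linked adaptor of the CUL3 ubiquitin ligase, had 16.6 and 14.2 CPM in wild type and 400.3 and 406 CPM in the libraries labelled KO1 (log2 fold change 4.71, SE 0.127, adjusted p = 9.61e-08). The X-linked gene Trpc5os had 13 and 28 counts in wild type and 650 and 693 counts in the libraries labelled KO1 (log2 fold change 5.08, SE 0.387, adjusted p = 2.37e-05), and Gna14, a G protein alpha subunit, 10 and 8 counts in wild type and 193 and 207 counts in the libraries labelled KO1 (log2 fold change 4.51, SE 0.261, adjusted p = 5.53e-06). For each of these 3 genes, the KO1-labelled libraries were close to each other and far above both wild-type libraries. Aass, an enzyme of lysine breakdown, and Pnma5, an X-linked gene of retrotransposon descent, rose by 3.96 and 4.07 on the log2 scale.

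Among the largest falls, Alg13, an X-linked subunit of the enzyme that adds the second sugar of N-glycans, had 238 and 206 CPM in the wild-type libraries and 41.7 and 37.3 CPM in the KO1-labelled libraries (log2 fold change -2.49, SE 0.132, adjusted p = 3.31e-06). Dock10, a guanine nucleotide exchange factor gene on chromosome 1, had 5.16 and 3.09 CPM in wild type and 0.0757 and 0.206 CPM in the libraries labelled KO1 (log2 fold change -4.76, SE 0.547, adjusted p = 2.15e-04), a fall far beyond the median of that chromosome. Kcnj3, a potassium channel subunit, and Hal, the first enzyme of histidine breakdown, fell by 3.71 and 3.56. Piwil4, a PIWI protein of the piRNA pathway, fell by 2.40, and Pou4f2, a POU factor of sensory neurons, by 2.49.

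The transposable elements are described by family. Young LINE-1 subfamilies (L1Md) were higher in 3 of 6 cases and lower in 0 (0 at p below 0.05 unadjusted, 0 by DESeq2; median 0.40, against -0.13 over all elements). L1Md_F, L1Md_F2 and L1Md_F3 were not called (log2 fold changes 0.26, 0.0069 and -0.12). L1Md_T had 497 and 474 CPM in the wild-type libraries and 681 and 772 CPM in the KO1-labelled libraries (log2 fold change 0.58, SE 0.0988, adjusted p = 0.00191), L1Md_A rose by 0.55 and L1Md_Gf by 0.88. Without KO1 replicate 2 none of the 3 passed (adjusted p = 0.0510, 0.0644 and 0.0723), nor L1Md_Gf without wild-type replicate 2 (adjusted p = 0.0579). Of 5 ETn and MusD elements, an active family, 4 rose. ETnERV-int had 1044 and 1108 CPM in wild type and 1392 and 1441 CPM in the libraries labelled KO1 (log2 fold change 0.40, SE 0.0978, adjusted p = 0.0126), and ETnERV3-int rose by 1.32. ETnERV-int lost its call without any 1 of the 4 libraries (adjusted p from 0.0537 to 0.139). The KO1-labelled libraries were above wild type for each of the called elements named here. Intracisternal A particles gave 1 higher and 1 lower of 22, with IAPEz-int at -0.25 (adjusted p = 0.0981).

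The element with the largest fold change was L1MEg2, an old LINE-1 subfamily with 4 and 4 counts in wild type and 38 and 31 counts in the libraries labelled KO1 (log2 fold change 3.13, SE 0.535, adjusted p = 0.00197). Few reads carry it, and reads of an element inside a transcribed gene cannot be told apart from the gene's own. Of 231 other ERVK subfamilies 15 rose and 8 fell, of 94 ERV1 2 and 7, of 87 MaLR 3 and 4, and of 78 ERVL other than MERVL 1 and 7. Old DNA transposons, which no longer move, fell in 14 of 147 cases and rose in 0 (median -0.18; for rises, 0 at p below 0.05 unadjusted, 0 by DESeq2). No SINE subfamily of 35 was called (median -0.18; for rises, 0 at p below 0.05 unadjusted, 0 by DESeq2; for falls, 3 at p below 0.05 unadjusted, 1 by DESeq2). With elements fitted apart from genes, 22 elements were higher and 7 lower. That fit changed the scaling, the estimate of the spread and the adjustment together. With the scaling alone changed, 31 were higher and 61 lower with DESeq2 size factors. With TMM factors from genes outside chromosomes 1 and 15 the counts were 28 and 68. Which part of the separate fit moved the balance between the directions was not tested. The summed share of element counts was 6.11% and 6.90% in wild type and 6.11% and 6.54% in the KO1-labelled libraries.

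**Figure D5:**
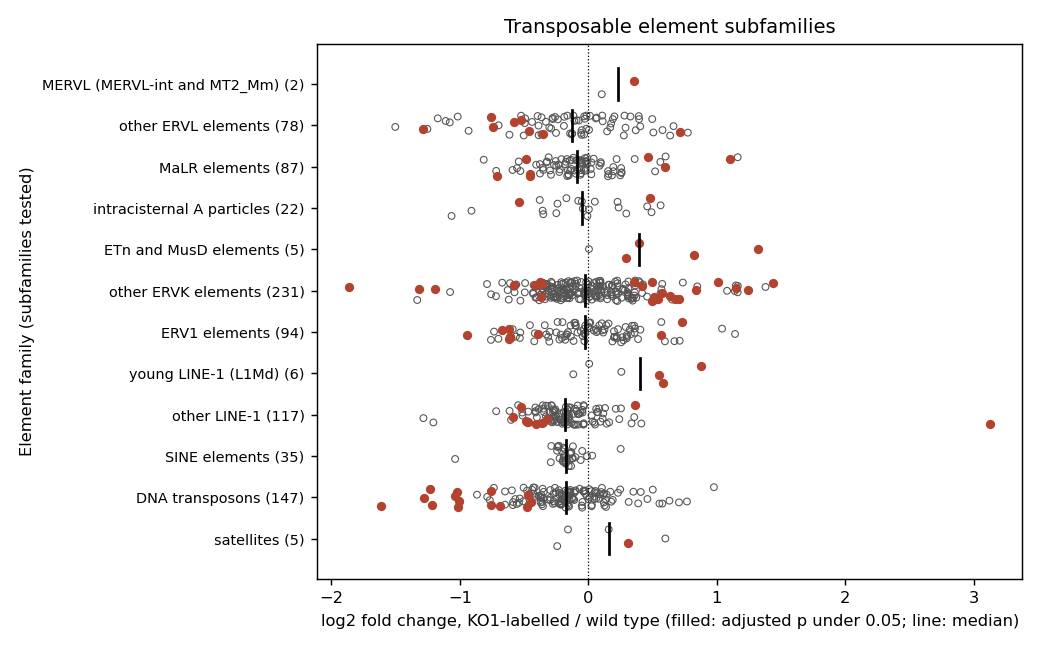
Log2 fold change of the libraries labelled KO1 over wild type for each tested element subfamily by family (points; filled where the adjusted p is under 0.05), with the median of the family (vertical line). The medians of young LINE-1 and of ETn and MusD lie to the right of 0, at 0.40 and 0.40.

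The lines labelled knockout differed from each other at many of these genes. Set against KO1 in the same fit, KO2 had 10.3% of genes higher and 13.7% lower, and 6.39% of elements higher and 1.14% lower. Of the 39 2-cell genes, a set shaped by the count filter as given above, 25 had a higher level in KO2 and 0 a higher level in KO1. Of the 59 integrated stress response genes 26 were lower in KO2 and 1 higher, of the 27 trophectoderm genes 14 and 3, and of the 46 actin genes 22 and 1. Acta2 was higher in KO1 than in KO2 by 3.57 on the log2 scale, Krt8 by 2.57 and Tagln by 2.93, and Tbx3, Klf4 and Grb10 were lower in KO1 than in KO2 by 1.91, 1.41 and 2.63 (adjusted p from 7.20e-06 to 7.03e-05). Trim66 did not differ between the lines beyond its error (difference 0.021, adjusted p = 0.965).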

How the data were processed

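RNA-seq of mouse ES cells was analysed for 4 libraries, 2 labelled KO1 and 2 wild type. The deposited table holds raw counts per gene and per transposable element subfamily, per the file headers. Per the submitters' processing notes, the series was processed with tools that include HISAT2 2.1.0 and Cufflinks 2.2.1 on mm10. With the counting tool, strandedness and treatment of multiply mapped reads not given in the sources used here, reads of overlapping or antisense genes and of near-identical copies cannot be told apart. The table lists 24394 genes, 1153 elements and 27 names turned into dates, which hold at most 0.201% of counts and stay in the totals but not in the tests.

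Counts of the 6 libraries of the table, KO2 included for a shared estimate of the spread, were fitted with edgeR 4.0.16 in R 4.3.3 (filterByExpr, TMM, quasi-likelihood F test), with KO1 against wild type as the contrast and Benjamini-Hochberg adjustment over all genes and elements tested. SE is the log2 fold change divided by the square root of F. Replicates differed by more than sampling noise (chi-square per degree of freedom 7.16 in wild type and 5.48 in KO1). Against a group at 0 counts, a fold change is a lower bound that takes 3 counts over that group. A ratio to a group of 1 to 3 counts carries a 95% exact interval, and both cover counting error only. Genes were placed by the RefSeq table of assembly GRCm38.p6, which is mm10 (99.5% matched).

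The members and gene lists were chosen with earlier results of these data known. Genes are named by a rule: the targets, the largest rises and falls (15 genes each way, at 2 CPM or more and without gene models, and 10 elements), the strongest calls of chromosomes 1 and 15 and of KO2 against KO1, and up to 6 called members per list and direction, taken in order of p, with the 2 most abundant members that did not pass; the text uses some of them; IAPEz-int, ETnERV-int, L1Md_A and L1Md_T were chosen after their values were seen. The alternatives were other scalings, filters and thresholds, DESeq2 1.42.0, the 4 libraries alone, each library left out in turn and the replicate number as a block. A few genes are not reported here.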

Additional observations from a re-analysis of the deposited data

Results flagged for a closer look

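The effects of the lines KO1 and KO2 were compared by the edgeR test of KO2 against KO1, in which the shared wild-type libraries cancel. Of the genes and elements named in the report, 108 differed between the lines at an adjusted p under 0.05 (7.20e-06 to 0.0498). They are listed here for that reason, with the log2 difference of KO2 minus KO1. Many were named for a large KO1 change, and some for this very difference, so the choice favoured a high number. As background, KO2 exceeded KO1 at 10.3% of genes and 6.39% of elements, and fell below it at 13.7% and 1.14%. A negative value means a level that was lower in KO2 than in KO1. Of the chromosome 15 genes among them, Krt8, Krt18 and Slc38a2 lie in the distal part that was raised in KO1. Dab2, Ndrg1 and Foxh1 lie before it.

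Among the 2-cell genes and transposable elements, those higher in KO2 differed by 2.16 for Zscan4f, 1.92 for Zscan4c, 1.74 for Rbm44, 1.74 for Gm8300, 0.89 for L1Md_A, 0.71 for L1Md_T, 0.67 for MERVL-int and 0.62 for MT2_Mm. Among the 2-cell genes and transposable elements, those lower in KO2 differed by -2.49 for L1MEg2 and -0.65 for ETnERV3-int. Among the genes of pluripotency, epiblast and signalling, those higher in KO2 differed by 1.91 for Tbx3, 1.41 for Klf4, 1.12 for Inhbb, 1.10 for Tet2, 0.88 for Sox4, 0.87 for Prdm14, 0.67 for Tcf15, 0.65 for Bmpr2 and 0.47 for Nr5a2. Further genes of pluripotency, epiblast and signalling higher in KO2 differed by 0.46 for Zic2, 0.45 for Trim24, 0.40 for Tfcp2l1 and 0.30 for Esrrb. Among the genes of pluripotency, epiblast and signalling, those lower in KO2 differed by -3.06 for Fgfr2, -2.98 for Dppa3, -1.85 for Lefty1, -1.38 for Pim2, -1.12 for Jun, -0.77 for Dusp1, -0.76 for Foxh1, -0.70 for Id2 and -0.68 for Id1. Further genes of pluripotency, epiblast and signalling lower in KO2 differed by -0.67 for Ehmt2, -0.57 for Nodal and -0.51 for Dnmt3b.

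Among the lineage, actin and fibroblast genes, those higher in KO2 differed by 2.13 for Cubn, 2.07 for Tspan8, 1.99 for Gata6, 1.95 for Dab2, 1.80 for Pdgfra, 1.73 for Tfap2a and 0.49 for Col4a1. Among the lineage, actin and fibroblast genes, those lower in KO2 differed by -3.57 for Acta2, -2.93 for Tagln, -2.57 for Krt8, -2.04 for Krt18, -1.55 for Tpm1, -1.45 for Col1a1, -1.37 for Cldn4, -1.35 for Myl9 and -1.27 for Rhox5. Further lineage, actin and fibroblast genes lower in KO2 differed by -1.0 for Apoe, -0.99 for Cnn2, -0.81 for Anxa2 and -0.46 for Tfap2c. Among the germline, Rhox and imprinted genes, those higher in KO2 differed by 3.41 for Rhox10, 2.63 for Grb10, 2.55 for Dazl, 1.30 for Piwil4, 1.19 for Stag3, 1.17 for Tex11, 0.76 for Ddx4 and 0.54 for Zdbf2. Among the germline, Rhox and imprinted genes, those lower in KO2 differed by -2.30 for Rhox9, -2.12 for Rhox6, -2.00 for Igf2, -1.58 for H19, -0.99 for Peg3, -0.91 for Mest and -0.66 for Sfmbt2. Among the stress, growth and other genes, those higher in KO2 differed by 3.72 for Kcnj3, 3.67 for Dock10, 3.08 for Hal, 2.60 for Alg13, 1.85 for Pmaip1, 1.47 for Pou4f2, 0.74 for Eprs, 0.66 for Noc3l and 0.62 for Aass. Further stress, growth and other genes higher in KO2 differed by 0.42 for Ccnd2. Among the stress, growth and other genes, those lower in KO2 differed by -5.02 for Trpc5os, -3.51 for Gna14, -2.35 for Gstm2, -1.83 for Klhl13, -1.79 for Gpx2, -1.79 for Cdkn2a, -1.56 for Ddit4, -1.40 for Gpt2 and -1.30 for Ifitm1. Further stress, growth and other genes lower in KO2 differed by -1.17 for Gstm1, -1.15 for Car12, -1.14 for Bst2, -0.91 for Ndrg1, -0.91 for Hexa, -0.91 for Slc38a2, -0.80 for Sqstm1, -0.79 for Slc16a3 and -0.71 for Nupr1. Other stress, growth and other genes lower in KO2 differed by -0.70 for Ifitm3, -0.66 for Tfe3, -0.58 for Pgk1, -0.48 for Tpi1, -0.48 for Ero1l, -0.39 for Mt2, -0.36 for Pfkl, -0.29 for Gars and -0.28 for Fn1. Other stress, growth and other genes lower in KO2 differed by -0.27 for Hspa5.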

How the results depend on the processing

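There were 15 alternatives. Of 125 named genes and elements called in KO1 against wild type, 118 kept their direction and call in every alternative that tested them. Another 7 lost the call in at least 1, all with their direction unchanged: MERVL-int, Trim24, ETnERV-int, L1Md_T, L1Md_A, L1Md_Gf and Trim66. Most of the named set was picked for a small adjusted p or a large change in these same data. The choice thus favoured a high number kept, and the number does not speak for all genes called. The sign of 2 genes without a call turned: Nr0b1 was at -0.0099 with TMM factors from genes outside chromosomes 1 and 15 and -0.038 to 0.067 with a library left out, and Pou5f1 at 0.012 with the replicate block and -0.19 to 0.17 with a library left out.

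The counts of calls moved with the number of libraries and the threshold. With each of the 6 libraries left out in turn, 1286 to 3475 genes were higher and 887 to 3167 lower, and 10 to 54 elements higher and 8 to 136 lower; the low ends come from fits in which wild type or KO1 had a single library, assumed to vary like the other groups, and the high ends from fits without a KO2 library. At an adjusted p under 0.01 the counts were 1473, 1096, 11 and 11 in the same order. For elements, DESeq2 gave 18 higher and 29 lower, the 4 libraries alone 55 and 117, and no low-count filter 88 lower. Elements fitted apart from genes gave 22 higher and 7 lower. The replicate numbers are not known to pair the samples (correlation of the deviations of same-numbered libraries 0.0893 between wild type and KO1, 0.261 between wild type and KO2 and 0.0646 between KO1 and KO2); with the replicate block 2913 genes were higher and 2371 lower, and 39 and 74 elements.

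The median of chromosome 1 was -0.66 with TMM factors from the other chromosomes and -0.59 over genes above a mean log2 CPM of 0, and -0.66 to -0.61 with a library left out. That of chromosome 15 was 0.26 with DESeq2 size factors, 0.24 with TMM factors from the other chromosomes, 0.26 without the low-count filter, 0.26 with genes fitted apart, 0.32 and 0.22 over genes above a mean log2 CPM of 0 and 5, and 0.22 to 0.28 with a library left out. Both kept their sign in each. The cause of these movements was not tested.

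With 2 libraries a group from unstated cultures, a line whose clonal origin is not given, and shifts of chromosome 1 in wild type and distal chromosome 15 in KO1, effects of Trim66, of the line and of chromosome content cannot be told apart. Genes with few wild-type counts have wide intervals, and no change of Dux was called at 1 and 6 counts in the libraries labelled KO1.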
